A study of Mus musculus with 8 samples.

Results

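The HOX genes were examined in RNA-seq of whole aortas from atherosclerotic mice. They were taken as every locus of the deposited gene table whose list of symbols held a name of the form Hoxa, Hoxb, Hoxc or Hoxd followed by a number. Where a symbol lay in several loci, the locus with the largest summed count was used. This gave 28 loci among 48607, which carried 36 of the 39 HOX symbols of the mouse annotation (GENCODE M21). No locus of that table carried the symbols Hoxb1, Hoxd12 or Hoxd13, so these genes were not analysed here. Cluster A gave 8 loci, cluster B 7, cluster C 7 and cluster D 6. For 4 of the loci the assembly had joined several HOX genes. Hoxa2/a3/a5/a6, Hoxb3/b5/b6, Hoxc5/c6/c10 and Hoxd3/d4 have a joint value each and together hold 12 of the symbols. On the same strand, Hoxa4 lies within the span of Hoxa2/a3/a5/a6 and Hoxb4 within that of Hoxb3/b5/b6. Likewise, Hoxc8 and Hoxc9 lie within the span of Hoxc5/c6/c10. How reads were shared between such loci is not given, so their separate values and sums may not be independent.

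HOX genes encode homeodomain transcription factors that give tissues their position along the body axis. They lie in clusters, and the order of the genes in a cluster follows their order of expression, with low paralogue numbers active from the hindbrain and neck backwards and high numbers only towards the tail and the limb ends. Adult smooth muscle cells and fibroblasts keep such a code, and in the aorta genes of high paralogue number are known to be more active in the descending vessel than in the arch. HOX proteins bind DNA together with PBX and MEIS cofactors, polycomb proteins keep silent HOX genes closed, and retinoic acid is a known inducer of the genes of low number.

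The study compared ApoE-/- mice, which develop atherosclerosis, with NPRC-/-ApoE-/- littermates, which also lack natriuretic peptide receptor C, the receptor that clears natriuretic peptides. Both groups lacked ApoE and ate a Western diet rich in fat and cholesterol for 12 weeks. Natriuretic peptide receptor C (gene Npr3) was inactivated in the whole animal by a CRISPR frameshift in exon 1 on a C57BL/6 background, the purchased ApoE-/- mice were male, and the ages at collection and sexes of the sequenced mice were not given in the labels. Each of the 8 libraries was made from poly(A) RNA of an entire aorta, 5 titled ApoE-/- and 3 titled NPRC-/-ApoE-/-. The paper names 5 aortas of each genotype for RNA-seq, so the libraries used here are fewer than its design. The labels conflict: the genotype field gives the other genotype for 4 libraries, ApoE-/- 4 and 5 and NPRC-/-ApoE-/- 1 and 2, so that the fields too make groups of 5 and 3. Every comparison was therefore made by title and again by genotype field, and libraries are named by title. No label names the animal behind each library, so p-values measure the spread between these libraries.

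Total counts ran from 62969165 to 86693276 per library, of which 8080 to 18915 fell on the HOX loci. Npr3 does not settle the labels. Its level was 0.62 to 1.69 FPKM (fragments scaled by transcript length and library size) in libraries titled ApoE-/- and 1.13 to 1.39 in those titled NPRC-/-ApoE-/-, a log2 difference of 0.10 ± 0.28 (SE; adjusted p = 0.901, edgeR's quasi-likelihood test), and a frameshift need not change the amount of a transcript. All 10 smooth muscle markers were present, with a summed level of 1354 to 2996 FPKM, as the tissue label has it. Markers of some other tissues differed by title, and their values stand beside the HOX results further on. In whole tissue, fewer cells of a type and less RNA per cell cannot be told apart.

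HOX transcripts were of low to moderate level in these aortas, and loci of paralogue numbers 4 to 8 gave more of them than loci of numbers 9 to 13. The mean over the 8 libraries was at least 1 FPKM at 10 loci, lay below 0.2 FPKM at 8, and was 0 counts in every library at Hoxb13 and Hoxd1. The highest HOX locus, Hoxb4, stood at the 83.5th percentile of all loci by mean FPKM. Hoxb13 is known from the tail bud and prostate and Hoxd1 from sensory neurons, and a count of 0 allows up to 3 counts, which is 0.0346 to 0.0476 CPM (counts scaled to the library total) in these libraries. FPKM depends on the length given to each assembled locus, so levels of unlike loci are compared only roughly. By total count, Hoxa2/a3/a5/a6 (29694) and Hoxb3/b5/b6 (20276) lay above Hoxb4 (15841). Summed FPKM was 11.7 on average for the 8 loci of numbers 4 to 8 and 4.25 for the 13 loci of numbers 9 to 13. It was 5.18 for the 4 joined loci, of which Hoxc5/c6/c10 holds numbers 5 to 10 and the others begin at number 2 or 3 and end at 4 or 6.

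**Figure D1:**
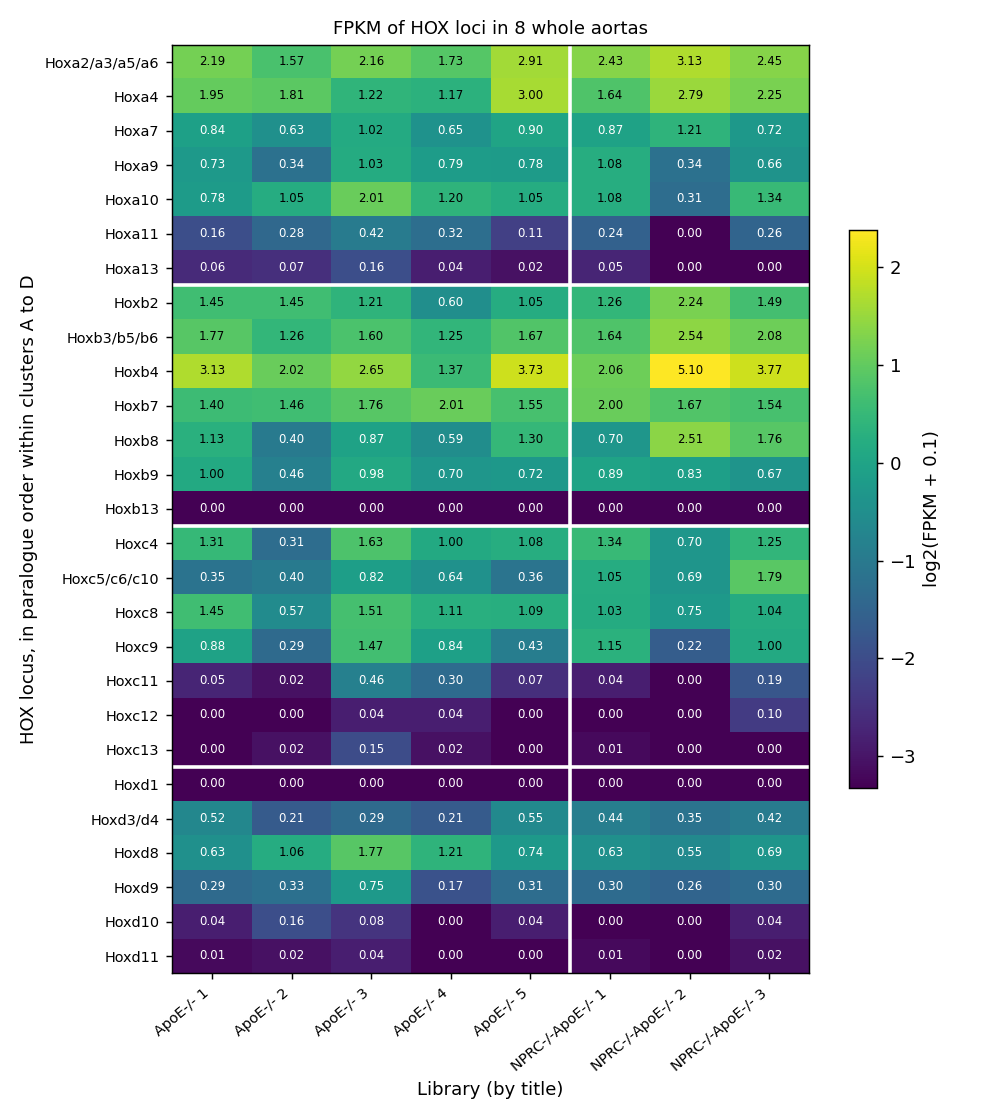
Level of HOX loci (vertical axis, in paralogue order within clusters A to D) in the 8 libraries (horizontal axis, by title), with FPKM written in each cell and colour giving log2(FPKM + 0.1). Hoxb4 reached 5.10 FPKM in NPRC-/-ApoE-/- 2, and loci of the highest paralogue numbers were at or near 0.

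Cluster B gave the most HOX RNA by summed FPKM. Its loci lie at chr11:96194316-96354012 on the plus strand (GRCm38, as are all positions here). Hoxb4, a factor known for expanding blood stem cells, was the highest HOX locus by mean FPKM. Hoxb4 had 3.13, 2.02, 2.65, 1.37 and 3.73 FPKM in ApoE-/- 1 to 5 and 2.06, 5.10 and 3.77 FPKM in NPRC-/-ApoE-/- 1 to 3. The lowest value was in ApoE-/- 4 and the highest in NPRC-/-ApoE-/- 2, and the titled groups overlapped. The locus Hoxb3/b5/b6 holds a gene of neck patterning (Hoxb3) and genes of the shoulder and rib region (Hoxb5 and Hoxb6). It had 1.77, 1.26, 1.60, 1.25 and 1.67 FPKM in ApoE-/- 1 to 5 and 1.64, 2.54 and 2.08 FPKM in NPRC-/-ApoE-/- 1 to 3. Of the libraries titled NPRC-/-ApoE-/-, replicates 2 and 3 lay above all those titled ApoE-/-, and replicate 1 lay within their range. Hoxb2, which acts in the hindbrain, had 1.45, 1.45, 1.21, 0.60 and 1.05 FPKM in ApoE-/- 1 to 5 and 1.26, 2.24 and 1.49 FPKM in NPRC-/-ApoE-/- 1 to 3, with NPRC-/-ApoE-/- 2 again highest.

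Hoxb7 was the steadiest of the HOX loci that passed the filter on low values. Its values were 1.40, 1.46, 1.76, 2.01 and 1.55 FPKM in ApoE-/- 1 to 5 and 2.00, 1.67 and 1.54 FPKM in NPRC-/-ApoE-/- 1 to 3, a coefficient of variation of 13.9% over the 8 libraries. Next to it on the chromosome, Hoxb8 varied far more, with a coefficient of variation of 60.2%. Hoxb8 had 1.13, 0.40, 0.87, 0.59 and 1.30 FPKM in ApoE-/- 1 to 5 and 0.70, 2.51 and 1.76 FPKM in NPRC-/-ApoE-/- 1 to 3. NPRC-/-ApoE-/- 2 and 3 lay above every library titled ApoE-/-, whereas NPRC-/-ApoE-/- 1 lay among the low ones. Hoxb8 is known from the spinal cord and from blood cell precursors. Hoxb9, a gene of the rib cage and the last expressed member towards the tail side of cluster B, ranged from 0.46 to 1.00 FPKM.

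Cluster A, followed here from Hoxa2 to Hoxa13 at chr6:52162417-52260880 on the minus strand, was led by its joined locus. Hoxa2/a3/a5/a6 holds genes of hindbrain, pharyngeal arch artery and lung development. It had 2.19, 1.57, 2.16, 1.73 and 2.91 FPKM in ApoE-/- 1 to 5 and 2.43, 3.13 and 2.45 FPKM in NPRC-/-ApoE-/- 1 to 3. All 3 libraries titled NPRC-/-ApoE-/- exceeded ApoE-/- 1 to 4, and ApoE-/- 5 lay among them. Hoxa4, a gene of neck vertebra identity, had 1.95, 1.81, 1.22, 1.17 and 3.00 FPKM in ApoE-/- 1 to 5 and 1.64, 2.79 and 2.25 FPKM in NPRC-/-ApoE-/- 1 to 3, with ApoE-/- 5 highest. Hoxa7 had 0.84, 0.63, 1.02, 0.65 and 0.90 FPKM in ApoE-/- 1 to 5 and 0.87, 1.21 and 0.72 FPKM in NPRC-/-ApoE-/- 1 to 3. These ranges overlapped throughout.

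The tail-side genes of cluster A had their extremes in other libraries. Hoxa10, known from the lumbar axis and the uterus, had 0.78, 1.05, 2.01, 1.20 and 1.05 FPKM in ApoE-/- 1 to 5 and 1.08, 0.31 and 1.34 FPKM in NPRC-/-ApoE-/- 1 to 3. Here ApoE-/- 3 was highest and NPRC-/-ApoE-/- 2, the library with the most Hoxb4 and Hoxb8, was lowest. Hoxa9, a gene of blood and endothelial cells, was 0.34 FPKM in both NPRC-/-ApoE-/- 2 and ApoE-/- 2 and 0.66 to 1.08 FPKM in the others. Hoxa11, a forelimb and kidney gene, ranged from 0 in NPRC-/-ApoE-/- 2 to 0.42 FPKM in ApoE-/- 3. Hoxa13, of the digits and hindgut, was the lowest locus of cluster A, at 0 to 0.16 FPKM.

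Cluster C, on chromosome 15 from Hoxc13 at 102921103 to the end of the Hoxc5/c6/c10 locus at 103017429, showed its RNA in numbers 4 to 10. Hoxc8, which patterns ribs and brachial motor neurons, had 1.45, 0.57, 1.51, 1.11 and 1.09 FPKM in ApoE-/- 1 to 5 and 1.03, 0.75 and 1.04 FPKM in NPRC-/-ApoE-/- 1 to 3. Hoxc9, a gene of the thoracic level, had 0.88, 0.29, 1.47, 0.84 and 0.43 FPKM in ApoE-/- 1 to 5 and 1.15, 0.22 and 1.00 FPKM in NPRC-/-ApoE-/- 1 to 3. In both genes ApoE-/- 3 was highest, and ApoE-/- 2 and NPRC-/-ApoE-/- 2 held the lowest values. The joined locus Hoxc5/c6/c10, which ends in the lumbar gene Hoxc10, had 0.35, 0.40, 0.82, 0.64 and 0.36 FPKM in ApoE-/- 1 to 5 and 1.05, 0.69 and 1.79 FPKM in NPRC-/-ApoE-/- 1 to 3. NPRC-/-ApoE-/- 1 and 3 stood above all libraries titled ApoE-/-, and NPRC-/-ApoE-/- 2 lay within their range. Hoxc11, Hoxc12 and Hoxc13, the last known from hair and nails, stayed between 0 and 0.46 FPKM, with the highest value in ApoE-/- 3 for Hoxc11 and Hoxc13.

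The locus kept for Hoxc4 by its larger count lies at chr15:103023268-103030756 on the minus strand, opposite to the annotated Hoxc4. Its values were 1.31, 0.31, 1.63, 1.00 and 1.08 FPKM in ApoE-/- 1 to 5 and 1.34, 0.70 and 1.25 FPKM in NPRC-/-ApoE-/- 1 to 3. The locus on the strand of the gene, at chr15:103018934-103036852, had 1.43, 0.47, 1.56, 0.83 and 1.32 FPKM and 1.40, 0.92 and 1.21 FPKM in the same order. Both had their highest value in ApoE-/- 3 and their lowest in ApoE-/- 2. The library kit marks strand, but how strand entered the counting is not given in the sources used here, so reads of the gene and of an antisense RNA cannot be told apart.

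Cluster D, at chr2:74679557-74765142 on the plus strand, had the least HOX RNA on average. Hoxd8, a gene of the trunk and the highest locus of the cluster in every library, had 0.63, 1.06, 1.77, 1.21 and 0.74 FPKM in ApoE-/- 1 to 5 and 0.63, 0.55 and 0.69 FPKM in NPRC-/-ApoE-/- 1 to 3. The groups met at 0.63, where ApoE-/- 1 equalled NPRC-/-ApoE-/- 1, and 4 of the 5 libraries titled ApoE-/- lay above all titled NPRC-/-ApoE-/-. Hoxd9 ranged from 0.17 to 0.75 FPKM and Hoxd3/d4 from 0.21 to 0.55. Hoxd10 and Hoxd11, genes of the hindlimb and forelimb, did not exceed 0.16 FPKM in any library.

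**Figure D2:**
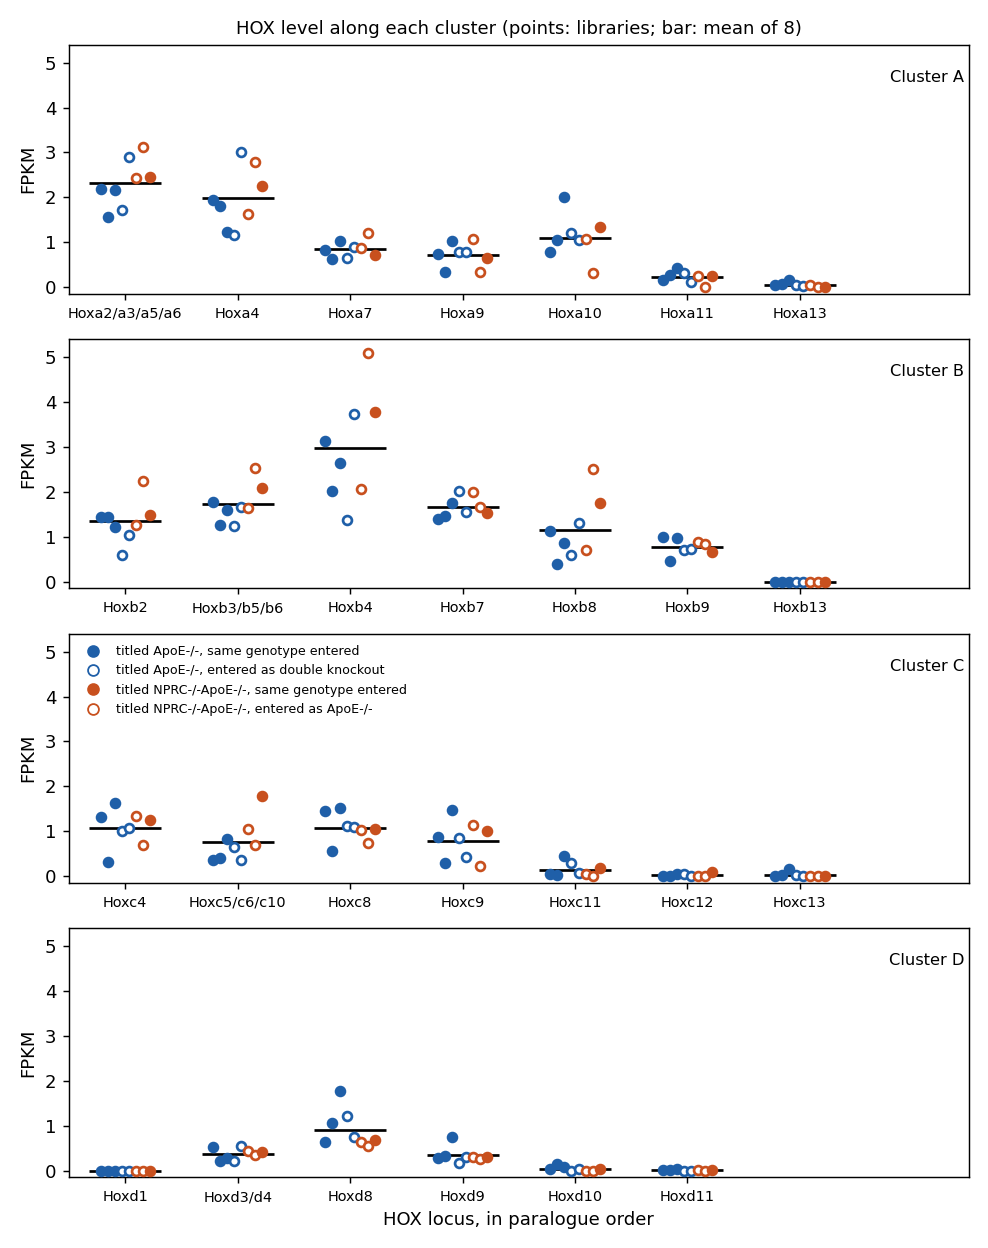
FPKM (vertical axis) of HOX loci along clusters A to D (horizontal axis, in paralogue order), with a point per library in the order of the titles, a bar at the mean of the 8 libraries, and open symbols where title and genotype field differ. Levels peak at paralogue numbers 2 to 8 and approach 0 at those loci of numbers 11 to 13 that each cluster held. Of these numbers cluster B held only Hoxb13 and cluster D only Hoxd11. The spread of Hoxb4 and Hoxb8 exceeds that of Hoxb7.

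The libraries differed in the share of their summed HOX FPKM that came from the tail-side numbers 9 to 13. NPRC-/-ApoE-/- 2 had 7.24% of its summed HOX FPKM in numbers 9 to 13, whereas ApoE-/- 3 had 28.1%. The other shares of numbers 9 to 13 were 17.6% in ApoE-/- 1, 18.0% in ApoE-/- 2, 23.9% in ApoE-/- 4, 14.6% in ApoE-/- 5, 21.7% in NPRC-/-ApoE-/- 1 and 17.2% in NPRC-/-ApoE-/- 3. Both groups thus span a wide range, and the most extreme libraries on either side carry different titles but, by genotype field, belong to the same genotype, ApoE-/-. Their summed HOX FPKM was nearly equal, 27.1 in ApoE-/- 3 and 27.1 in NPRC-/-ApoE-/- 2. The share of numbers 4 to 8 was steadier, 45.9% to 56.4%.

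The ratio of cluster B to cluster C had its extremes in the same pair of libraries, 6.31 in NPRC-/-ApoE-/- 2 and 1.49 in ApoE-/- 3. It was 4.38 in ApoE-/- 2, whose share of numbers 9 to 13 was not among the lowest, and 1.65 to 3.31 in the other libraries. Among the 20 loci with a mean of at least 0.2 FPKM, ApoE-/- 3 had the highest value at 8, and NPRC-/-ApoE-/- 2 had the highest at 6, of which 4 were among the 6 such loci of cluster B. NPRC-/-ApoE-/- 2 also had the lowest value at 4 of the 20, ApoE-/- 2 at 6 and ApoE-/- 4 at 5. Extremes of the HOX profile were therefore spread over libraries of both titles.

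By title, 1 of the 12 HOX loci that could be tested passed an unadjusted p of 0.05. It was Hoxb3/b5/b6, higher by 0.49 ± 0.18 on the log2 scale in libraries titled NPRC-/-ApoE-/- (unadjusted p = 0.0235, adjusted p = 0.316, edgeR's quasi-likelihood test). Of all 20506 loci tested, 13.6% passed the same limit, 6.51% higher and 7.13% lower, and at an adjusted p of 0.05 the share was 0%, so 1 of 12 is no more than the background. DESeq2 called 650 of all loci at an adjusted p of 0.05 and none of the 12, of which 3 passed its unadjusted limit beside 16.7% of all loci. None of the 12 had titled groups that did not overlap in FPKM, against 7.25% of all loci tested. The study's limits, a fold over 2 or under 0.5 with an unadjusted p under 0.05, were met by 3.47% of all loci and by 0 of the 12. The call of Hoxb3/b5/b6 was lost without NPRC-/-ApoE-/- 2 (log2 difference 0.37) and without NPRC-/-ApoE-/- 3 (0.47), and the count rose to 4 of 12 without ApoE-/- 5, when 18.9% of all loci passed, and to 4 of 11 without NPRC-/-ApoE-/- 1, when 21.7% did.

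Fitted directions were mixed among the tested loci. Of the 12 loci, 9 had a positive and 3 a negative log2 fold change, with a median of 0.21, beside a median of -0.01 over all loci tested. The positive side was led by Hoxb8 at 0.98 ± 0.45 (unadjusted p = 0.0585, adjusted p = 0.380), ahead of Hoxb2 at 0.55 ± 0.29, Hoxb4 at 0.53 ± 0.34, Hoxa2/a3/a5/a6 at 0.36 ± 0.19 and Hoxa4 at 0.33 ± 0.31. Near 0 were Hoxb7 at 0.10 ± 0.21, the minus-strand Hoxc4 locus at 0.05 ± 0.47 and Hoxc9 at 0.02 ± 0.63. The negative side held Hoxd8 at -0.80 ± 0.38 (unadjusted p = 0.0631, adjusted p = 0.386), Hoxa10 at -0.40 ± 0.49 and Hoxc8 at -0.27 ± 0.32. Without NPRC-/-ApoE-/- 2 the values of Hoxb8 (0.61), Hoxb2 (0.33), Hoxb4 (0.26) and Hoxa4 (0.18) were smaller by more than 1.5 times, and without NPRC-/-ApoE-/- 1 Hoxb4 (0.83) and Hoxa4 (0.52) were larger by as much. Hoxa4 also moved that far without ApoE-/- 4 (0.22) or 5 (0.56). Hoxc8 moved to -0.45 without ApoE-/- 2, -0.12 without ApoE-/- 3 and -0.10 without NPRC-/-ApoE-/- 2, and Hoxa10 to -0.11 without ApoE-/- 3, 0.04 without NPRC-/-ApoE-/- 2 and -0.81 without NPRC-/-ApoE-/- 3. Apart from Hoxb3/b5/b6, none of these passed the unadjusted limit with all libraries, and the counts and the median are a description of the 12 loci.

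**Figure D3:**
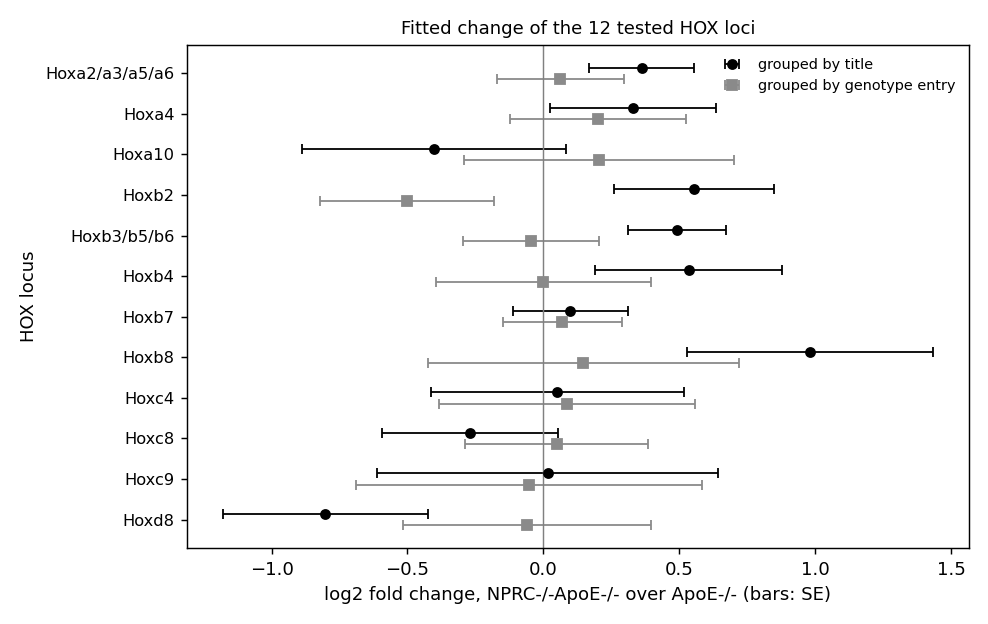
Fitted log2 fold change (horizontal axis, NPRC-/-ApoE-/- over ApoE-/-) of the 12 tested HOX loci (vertical axis), with circles for groups by title, squares for groups by genotype field and bars for the SE derived from edgeR's quasi-likelihood test. Hoxb8 at 0.98 and Hoxd8 at -0.80 lie farthest out by title, and by genotype field all 12 lie between -0.50 and 0.21.

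The other 16 loci did not have at least 1 FPKM in at least 3 libraries. Without that filter, 26 HOX loci had enough counts for a fit, and 2 passed the unadjusted limit, against 11.5% of all 39606 loci fitted that way. The added locus was Hoxc5/c6/c10, higher by 1.19 ± 0.41 in libraries titled NPRC-/-ApoE-/- (unadjusted p = 0.0166, adjusted p = 0.370). It was the only HOX locus of the 26 that met the fold limit as well, which 5.47% of all loci met. When the 3 loci that carry the name Hoxc5 were summed, the difference was 0.89 with an unadjusted p of 0.0611. Hoxa13, Hoxc13, Hoxd10, Hoxc11 and Hoxa11, genes of the tail end, had negative fitted values with SE of 0.95 to 2.00, and no difference was detectable at this depth. Hoxc12 and Hoxd11, with 20 and 40 counts in all, were as uncertain (1.19 ± 1.80 and -0.60 ± 1.62). The loci of middling level lay close to 0, at 0.22 ± 0.25 for Hoxa7, 0.22 ± 0.33 for Hoxd3/d4, 0.06 ± 0.29 for Hoxb9, -0.08 ± 0.42 for Hoxa9 and -0.35 ± 0.47 for Hoxd9, none past the limit.

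The genotype field gave another picture. None of the 12 HOX loci passed the unadjusted limit, against 1.31% of all loci tested, and every adjusted p was 1. Fitted values lay between -0.50 ± 0.32 for Hoxb2 and 0.21 ± 0.50 for Hoxa10, with a median of 0.06. Hoxb8 stood at 0.15 ± 0.57, Hoxb3/b5/b6 at -0.05 ± 0.25 and Hoxd8 at -0.06 ± 0.46, all less than their SE. Without a filter on low values, 0 of 26 passed, against 2.36% of all loci fitted. No tested HOX locus had groups that did not overlap by genotype field either, where 0.97% of all loci did.

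Sums over classes and clusters were compared as ranges only. By title, the joined loci summed to 3.44 to 5.49 FPKM in ApoE-/- and 5.56 to 6.74 FPKM in NPRC-/-ApoE-/-, 4.49 ± 0.84 (SD, n = 5) and 6.34 ± 0.67 (SD, n = 3), without overlap. Cluster D summed to 1.49 to 2.93 FPKM and 1.16 to 1.47 FPKM, 1.89 ± 0.59 and 1.34 ± 0.16, also without overlap but with nearest values of 1.47 and 1.49. Of all single loci tested, 7.25% were without overlap by title, but none of the HOX loci was. The joined loci were grouped by the assembly and not by paralogue number, so their sum stands for no class. Numbers 4 to 8 gave 11.0 ± 2.21 and 12.9 ± 2.51 FPKM, and numbers 9 to 13 gave 4.52 ± 1.79 and 3.80 ± 1.60, with overlapping ranges. The whole HOX sum was 21.9 ± 4.16 FPKM by title ApoE-/- and 25.3 ± 2.59 by title NPRC-/-ApoE-/-. By genotype field it was 23.2 ± 4.21 and 23.1 ± 4.16, and no class or cluster was without overlap.

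**Figure D4:**
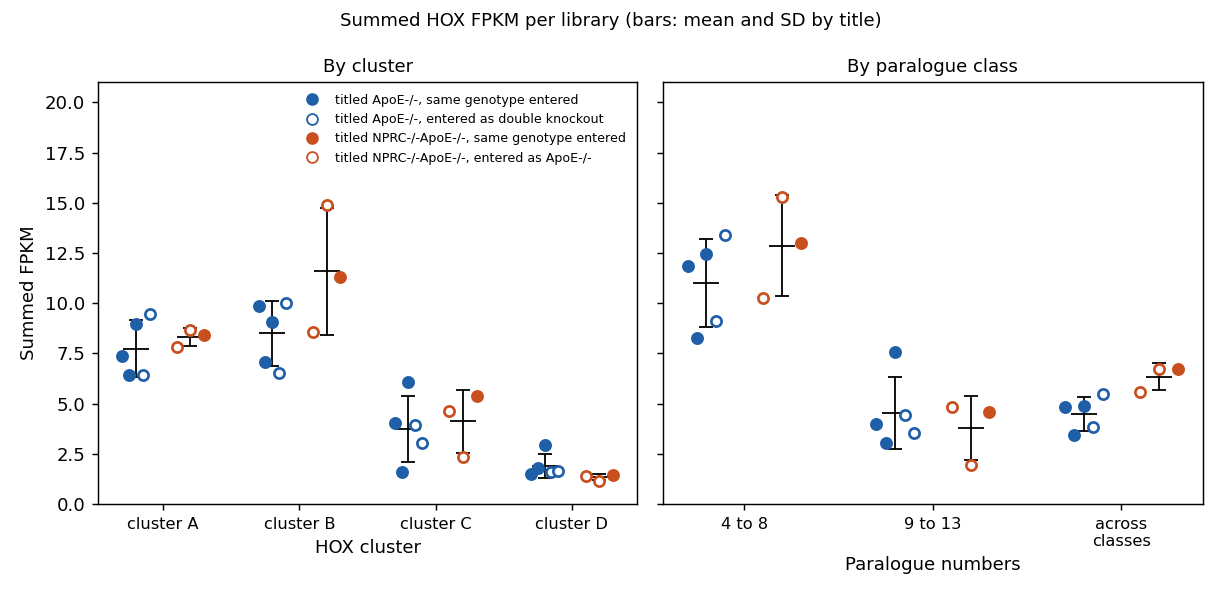
Summed FPKM (vertical axis) per library for clusters A to D (left) and for paralogue classes (right), with blue for libraries titled ApoE-/-, orange for NPRC-/-ApoE-/-, open symbols where title and genotype field differ, and bars for mean and SD by title. The joined loci across classes, each of which overlaps between the titles, sum to 5.56 and above in NPRC-/-ApoE-/- and to 5.49 and below in ApoE-/-. NPRC-/-ApoE-/- 2 has the highest cluster B sum at 14.9.

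Of 12 lists of markers for the tissues in an aorta preparation, 4 were without overlap between the titles. Over lists of 10 markers, the mean level in log2 CPM was 8.49 to 8.91 in ApoE-/- and 8.93 to 9.75 in NPRC-/-ApoE-/- for smooth muscle. Neuron markers stood at 0.76 to 3.32 and -2.04 to -0.90, Schwann cell markers at 3.15 to 3.70 and 1.94 to 2.57, and endothelial markers at 6.18 to 6.31 and 6.03 to 6.15. Each of these 4 lists gave p = 0.0357 in a two-sided exact permutation test over libraries, the smallest value that 5 against 3 allows, and 0.107 after adjustment over 12 lists. In single genes, 9 of 10 smooth muscle markers were higher at an unadjusted p of 0.05, and 3 of 4 tested neuron markers, 7 of 8 Schwann cell markers, 4 of 10 macrophage markers and 3 of 10 adventitial fibroblast markers were lower, beside 6.51% of all loci tested that were higher and 7.13% that were lower. The lists of adventitial fibroblasts (p = 0.0714), macrophages (0.107), lymphocytes (0.107), brown fat (0.25), skeletal muscle (0.321), cardiomyocytes (0.321), mesothelium (0.714) and white fat (0.929) had larger exact permutation p, and by genotype field the smallest exact permutation p of any list was 0.0714.

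The libraries at the ends of the HOX profile stood at the ends of several lists, but so did a library from its middle. ApoE-/- 3, with the largest share of numbers 9 to 13, had the highest fibroblast (8.69), macrophage (7.935), neuron (3.32) and Schwann cell (3.70) levels. Its white fat (5.16) and brown fat (4.68) levels were the lowest of all 8 libraries. ApoE-/- 4 all but equalled it in macrophage level (7.934) and had the higher summed macrophage FPKM, 2232 against 2115. NPRC-/-ApoE-/- 2, with the smallest share, had the lowest fibroblast (7.28), neuron (-2.04), Schwann cell (1.94), endothelial (6.03), mesothelial (-2.745) and lymphocyte (-0.74) levels. ApoE-/- 2, with a share of 18.0%, had the highest endothelial (6.31), mesothelial (1.36), lymphocyte (2.73), cardiomyocyte (2.05), white fat (6.89) and brown fat (6.27) levels. None of the markers in the lists was at 0 in all libraries. The part of these tissues, and of the stretch of vessel taken, in the HOX levels was not tested.

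Cofactors of HOX proteins were measured at higher levels than most HOX loci. Of 11 TALE homeodomain cofactors (PBX, MEIS, PKNOX and TGIF), 9 could be tested. By title 2 were higher and 0 lower at an unadjusted p of 0.05, beside 6.51% and 7.13% of all loci tested, and the median log2 fold change of the 9 was -0.09. Pknox2 had 1.37, 0.90, 1.21, 1.05 and 1.32 FPKM in ApoE-/- 1 to 5 and 1.51, 1.83 and 1.48 FPKM in NPRC-/-ApoE-/- 1 to 3, without overlap. Its log2 difference was 0.48 ± 0.16 (unadjusted p = 0.0140, adjusted p = 0.290). Meis1, a partner that binds DNA with HOX proteins, had 2.51, 1.70, 2.41, 1.37 and 2.81 FPKM in ApoE-/- 1 to 5 and 2.71, 3.24 and 3.09 FPKM in NPRC-/-ApoE-/- 1 to 3, a difference of 0.51 ± 0.22 (unadjusted p = 0.0444, adjusted p = 0.355). ApoE-/- 5 overlapped the other group in Meis1, and Meis2, a gene of the same family, ranged from 1.57 to 2.41 FPKM over all libraries with a difference of 0.21 ± 0.13 that did not pass. The call of Pknox2 was lost without NPRC-/-ApoE-/- 2 (0.42), and that of Meis1 without ApoE-/- 2 or 4 or NPRC-/-ApoE-/- 2 or 3 (0.40 to 0.50) and with limma on log2(FPKM + 1) (0.36) or log2(FPKM + 0.1) (0.50).

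Among 20 regulators of HOX chromatin, 18 were tested, and by title 2 were lower and 1 was higher at an unadjusted p of 0.05. This is a share near the 13.6% of all loci that passed in either direction, so it is no result about these regulators as a group. Eed, a core subunit of polycomb repressive complex 2, had 3.59, 3.48, 3.51, 3.46 and 3.66 FPKM in ApoE-/- 1 to 5 and 2.78, 3.02 and 2.76 FPKM in NPRC-/-ApoE-/- 1 to 3. The groups were apart, and the difference was -0.29 ± 0.12 (unadjusted p = 0.0368, adjusted p = 0.338). Rnf2, the ubiquitin ligase of polycomb complex 1, had 2.25, 2.18, 2.02, 1.96 and 1.98 FPKM in ApoE-/- 1 to 5 and 1.74, 1.75 and 1.03 FPKM in NPRC-/-ApoE-/- 1 to 3, a difference of -0.45 ± 0.17 (unadjusted p = 0.0236, adjusted p = 0.316). NPRC-/-ApoE-/- 3 was the lowest there, and the locus also carries the symbol Gm36527. Kmt2a, the methyltransferase that keeps HOX genes active, had 7.40, 6.12, 6.17, 6.61 and 6.92 FPKM in ApoE-/- 1 to 5 and 7.29, 8.89 and 8.93 FPKM in NPRC-/-ApoE-/- 1 to 3. It was higher by 0.36 ± 0.13 (unadjusted p = 0.0209, adjusted p = 0.311), in a locus shared with Ttc36, and the groups overlapped by ApoE-/- 1 and NPRC-/-ApoE-/- 1. Without NPRC-/-ApoE-/- 3 the calls of Rnf2 (-0.25) and Kmt2a (0.29) were lost, that of Kmt2a also without NPRC-/-ApoE-/- 2 (0.36), and that of Eed without any single library other than ApoE-/- 2 (-0.25 to -0.30). The call of Eed was lost too without a filter on low values (-0.29, unadjusted p = 0.0507) and with upper quartile scaling (-0.25, unadjusted p = 0.0641).

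Of the signals and factors that set HOX expression in the embryo, 9 loci were tested and 4 were lower by title at an unadjusted p of 0.05, beside 7.13% of all loci tested. Aldh1a2, which makes retinoic acid from retinaldehyde, had 3.24, 4.66, 2.69, 3.11 and 2.67 FPKM in ApoE-/- 1 to 5 and 0.79, 0.42 and 0.57 FPKM in NPRC-/-ApoE-/- 1 to 3. All 3 libraries titled NPRC-/-ApoE-/- lay far below the others, by -2.43 ± 0.28 on the log2 scale (unadjusted p = 1.22e-05, adjusted p = 0.0832, edgeR). DESeq2 gave an adjusted p of 1.45e-14 for it, and the range over all alternatives reached 1, under the genotype field, where the difference was -0.13. Aldh1a3, a second enzyme of the same step, had 3.40, 3.57, 2.74, 2.28 and 2.56 FPKM in ApoE-/- 1 to 5 and 1.86, 1.64 and 2.31 FPKM in NPRC-/-ApoE-/- 1 to 3, a difference of -0.55 ± 0.20 (unadjusted p = 0.0201, adjusted p = 0.309). ApoE-/- 4 lay below NPRC-/-ApoE-/- 3 in that gene, and its call was lost without NPRC-/-ApoE-/- 1 (-0.50) or 2 (-0.41).

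The other retinoid genes did not pass. Aldh1a1 ranged from 1.02 to 2.14 FPKM and Cyp26b1, which breaks retinoic acid down, from 1.46 to 2.91, with log2 differences of 0.07 ± 0.23 and 0.04 ± 0.20. The receptor genes Rara and Rarg differed by -0.31 ± 0.20 and -0.04 ± 0.13. Egr2, a hindbrain regulator that is also a Schwann cell gene, had 2.14, 2.59, 7.03, 3.75 and 1.62 FPKM in ApoE-/- 1 to 5 and 1.61, 1.01 and 1.46 FPKM in NPRC-/-ApoE-/- 1 to 3 (-1.35 ± 0.51, unadjusted p = 0.0268, adjusted p = 0.324). It is itself among the Schwann cell markers above, and the part of those cells was not tested. Its call was lost without NPRC-/-ApoE-/- 2 (-1.13) and without NPRC-/-ApoE-/- 3 (-1.42), and its value was -0.87 without ApoE-/- 3.

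**Figure D5:**
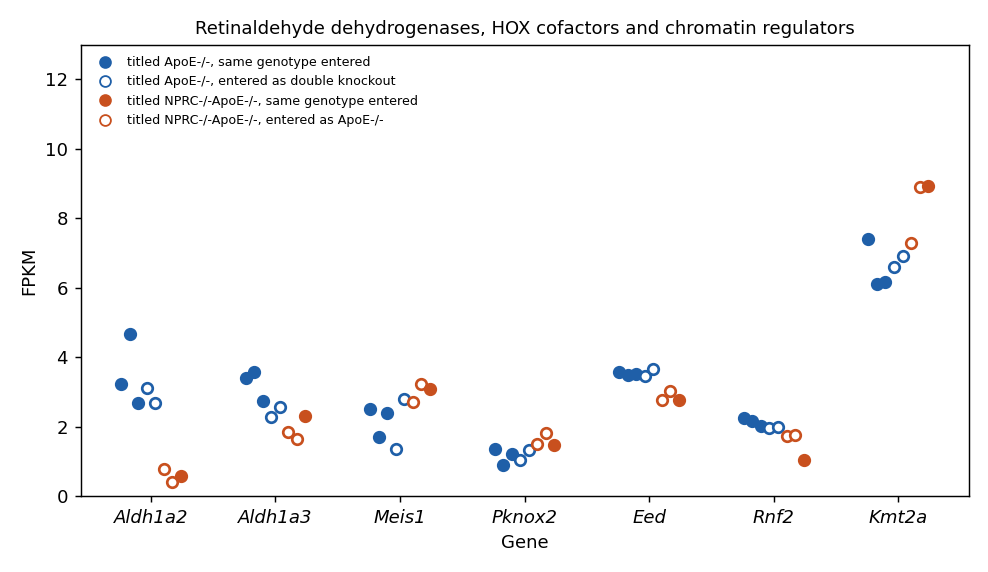
FPKM (vertical axis) per library of retinaldehyde dehydrogenase genes, HOX cofactors and chromatin regulators (horizontal axis), with blue for libraries titled ApoE-/-, orange for NPRC-/-ApoE-/- and open symbols where title and genotype field differ. Aldh1a2 separates the titles, at 2.67 FPKM or more against 0.79 or less, and open and filled symbols of the same title lie together.

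By genotype field, 0 of the cofactors, 0 of the chromatin regulators and 0 of the upstream signals passed the unadjusted limit, which 1.31% of all loci passed, so that a count of 0 is near the background. Among 45 loci of other position-dependent transcription factors, such as Hand2, Tbx20 and Foxc1, 13 could be tested. None of the 13 passed by title (13.6% of all loci did), where their median difference was -0.03, and by genotype field 1 did, Tbx18, a gene of mural cells and the heart, at -0.57 ± 0.15 (unadjusted p = 0.00496, adjusted p = 1).

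Noncoding transcripts of the HOX clusters were as low as the HOX loci. Of 13 such loci apart from the HOX loci themselves, 4 could be tested. By title none of the 4 passed the unadjusted limit, which 13.6% of all loci passed, so this count is near the background. Without the filter on low values, 1 of 10 was lower, beside 11.5% of all loci fitted that passed in either direction. The locus of Hotairm1, a noncoding RNA of cluster A, also carries Hoxaas3 and ranged from 0.86 to 2.99 FPKM, with a log2 difference of 0.52 ± 0.34. Hoxaas2 and Hoxb5os differed by 0.61 ± 0.39 and 0.82 ± 0.78. Hotair and Hottip, noncoding RNAs of the tail ends of clusters C and A, had 8 and 0 counts in all libraries together.

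The clusters also hold microRNA genes, which poly(A) sequencing does not measure as mature microRNAs. Mir10a lies in the Hoxb4 locus and Mir196b in the Hoxa9 locus, so that reads of their host transcripts could not be separated from the HOX genes. The locus of Mir10b had 7 counts in all, that of Mir196a-1 had 58 and that of Mir196a-2 had 73, with 0 FPKM for Mir196a-2 in NPRC-/-ApoE-/- 2 and 1.97 in ApoE-/- 3. Their mature sequences (RefSeq, GRCm38.p6) are given because copies in different clusters share a seed, bases 2 to 8, printed in capitals.
miR-10a-5p: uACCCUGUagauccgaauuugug
miR-10b-5p: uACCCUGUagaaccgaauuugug
miR-196a-5p: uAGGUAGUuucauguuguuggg
miR-196b-5p: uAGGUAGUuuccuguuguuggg
Members of a pair differed at 1 base, U12A from miR-10a-5p to miR-10b-5p and A12C from miR-196a-5p to miR-196b-5p, counted from the 5′ end and outside the seed. Both genes of miR-196a, on chromosomes 11 and 15, give the same mature sequence.

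The 250 bases before the RefSeq start (GRCm38.p6, plus strand) are given for Hoxb4, the highest HOX locus by mean FPKM. They are also given for Hoxb8 and Hoxd8, whose fitted differences by title were the farthest up and down among the 12 tested. The Hoxb4 window lies inside the assembled Hoxb4 locus, which starts at chr11:96312395. For Hoxb8 and Hoxd8 the assembled locus starts directly after the window. Capitals mark matches, on either strand, to TATAAA (the TATA box), CCAAT, TGATNNAT (a site of PBX with HOX) and TTTATG (a site of the CDX and tail-side HOX kind), motifs chosen after the windows were seen.
Hoxb4, chr11:96318017-96318266: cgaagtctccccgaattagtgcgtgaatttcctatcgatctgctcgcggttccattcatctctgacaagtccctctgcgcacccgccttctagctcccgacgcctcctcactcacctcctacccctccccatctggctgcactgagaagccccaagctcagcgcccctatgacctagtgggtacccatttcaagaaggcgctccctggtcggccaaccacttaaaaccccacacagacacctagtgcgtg
Hoxb8, chr11:96281655-96281904: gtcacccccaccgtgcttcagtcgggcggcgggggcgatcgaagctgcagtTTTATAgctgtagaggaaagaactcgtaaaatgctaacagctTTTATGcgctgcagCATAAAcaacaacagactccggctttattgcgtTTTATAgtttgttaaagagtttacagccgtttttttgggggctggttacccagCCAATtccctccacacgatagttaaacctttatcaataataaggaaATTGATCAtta
Hoxd8, chr2:74704365-74704614: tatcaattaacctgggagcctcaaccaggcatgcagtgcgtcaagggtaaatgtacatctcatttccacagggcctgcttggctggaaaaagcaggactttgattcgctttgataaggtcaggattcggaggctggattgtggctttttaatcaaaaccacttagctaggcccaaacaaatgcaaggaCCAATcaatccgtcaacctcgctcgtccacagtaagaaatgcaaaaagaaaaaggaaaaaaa
The Hoxb8 window held 2 matches to TATAAA, 2 to TTTATG, 1 to CCAAT and 1 to TGATNNAT, with no overlap between them. Hoxd8 held 1 CCAAT, and Hoxb4 held no match. Of 32851 windows of all genes, 12.4% held TATAAA, 33.8% CCAAT, 7.68% TGATNNAT and 10.8% TTTATG. Among 21 windows of 19 HOX symbols, 3 held TATAAA, 11 CCAAT, 3 TGATNNAT and 5 TTTATG.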

How the data were processed

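Whole-aorta poly(A) RNA of 8 libraries was measured, and the authors deposited a table of all loci. Per the submitters' processing notes, reads were trimmed with cutadapt 1.9, checked with FastQC and placed on GRCm38, and the methods name HISAT2 and StringTie. The deposited counts are whole numbers per assembled locus, not normalized. The deposited FPKM values were scaled by the authors to transcript length and mapped fragments. How loci were counted, and with which strand setting, is not given in the sources used here, and 0 columns of values could not be given a sample. Loci were overlapped with GENCODE M21.

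Loci reaching 1 FPKM in 3 or more libraries entered a fit with edgeR 4.0.16 in R 4.3.3 (TMM scaling, quasi-likelihood test, Benjamini-Hochberg adjustment over all loci tested), by title and by genotype field. The biological coefficient of variation was 0.327. On simulated data with 200 of 20506 genes changed 4-fold, 90% were called at an adjusted p of 0.05. No smaller change was simulated, so this share does not measure how often differences of the size fitted at the tested HOX loci are called. DESeq2 1.42.0 and limma 3.58.1 served as alternatives, besides other scalings, filters and left-out libraries. Marker lists were averaged as log2 CPM (prior count 2) and compared by exact permutation (scipy 1.17.1). Given in full are the 12 HOX loci of highest mean FPKM, those with an unadjusted p under 0.05 and, from the lists, genes with an unadjusted p under 0.05 and a mean of at least 1 FPKM. Hoxc9 was added after its values were seen, as it was tested. The members and lists were chosen with earlier results of these data known. Titles share the numbers 1 to 3, but same-numbered libraries did not deviate together (correlations of -0.33, -0.11 and 0.00 between deviations from group means). The limits given for a count of 0 cover counting error only, whereas SE and SD include the spread between libraries. The SE of an edgeR log2 difference was derived, as its absolute value over the square root of the F statistic, and is approximate at low counts. A HOX locus and some listed genes are not reported here by name.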

Additional observations from a re-analysis of the deposited data

Results flagged for a closer look

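In groups of 5 libraries, a value was singled out where the gap from the highest or lowest library to the next was large against the range of the group (Dixon's 95% limit). Of 88 groups checked, 8 were singled out, and chance gives about 4.4. Hoxb2 stood out in NPRC-/-ApoE-/- 2, at 2.24 FPKM, the highest of the libraries entered as ApoE-/-. The cluster D sum stood out in ApoE-/- 3, at 2.93 FPKM, the highest of those titled ApoE-/-. Aldh1a2 was highest in ApoE-/- 2 at 4.66 FPKM among libraries titled ApoE-/-, and Egr2 was highest in ApoE-/- 3 at 7.03 FPKM among those entered as ApoE-/-. Marker levels in log2 CPM stood out in ApoE-/- 2 for endothelial cells (6.31, by title) and for mesothelium (1.36, by title and by genotype field), and in ApoE-/- 3 for brown fat, where 4.68 was the lowest level among those entered as ApoE-/-.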

How the results depend on the processing

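The count of HOX loci past an unadjusted p of 0.05 by title, 1 of 12, moved with the processing. It was 2 without a filter on low values, 3 with DESeq2, 0 by genotype field and 0 to 4 without single libraries. The loci past the limit with DESeq2 were Hoxd8, Hoxb8 and Hoxb3/b5/b6. Their adjusted p was at least 0.233 for the first pair and 0.163 for the last. With the replicate number as a replicate block in the 6 libraries numbered 1 to 3 the count was 0, and in the same 6 without a block 0. By genotype field the count was 0, and 0 to 1 without single libraries (Hoxb2, without NPRC-/-ApoE-/- 3). Numbers 1 to 3 differed by 0.34 on the log2 scale of summed FPKM by title and by -0.42 by genotype field. The count over the lists of cofactors, chromatin regulators, upstream signals, cluster transcripts and other regional factors was 9 by title, of 9, 18, 9, 4 and 13 loci tested. Without a filter it was 14 (5 of them regional factors), of 11, 20, 11, 10 and 41 loci. By genotype field it was 1 (Tbx18, a regional factor). Over all loci, 13.6%, 11.5% and 1.31% passed in the same order of settings, so these counts are no result about the lists. The marker lists without overlap went from 4 to 0 by genotype field. Signs reversed by genotype field for Hoxa10 (0.21), Hoxb2 (-0.50), Hoxb3/b5/b6 (-0.046), Hoxc8 (0.049), Hoxc9 (-0.054), Pknox2 (-0.061), Eed (0.032) and Meis1 (-0.030), and in the 4 libraries with agreeing labels for Hoxa10 (0.26) and Hoxc8 (0.029). Hoxc9 also reversed with limma on log2(FPKM + 0.1) (-0.046), with the replicate block (-0.16) and in the same 6 libraries without it (-0.16). Without single libraries Hoxa10 ran from -0.81 to 0.040, the Hoxc4 locus from -0.19 to 0.33 and Hoxc9 from -0.20 to 0.49. The median over the HOX loci by title stayed positive, at 0.03 to 0.47, in the 20 alternatives run. The causes were not tested. Low counts limit the loci of numbers 11 to 13.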
